A study of Mus musculus with 12 samples.

Results

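Akt2, the gene of the AKT serine/threonine kinase most tied to insulin action, and Bad, the gene of a pro-apoptotic member of the Bcl-2 family, are 2 of the 736 rows of a metabolic nCounter panel, and both were measured in all 12 libraries. They were chosen from earlier results of the same data, for a Western-diet difference that was not alike in the 2 genotypes. That difference is therefore described here with its error, and no p is given for it in either gene. The study asked how diet and the loss of sphingosine kinase 2, which makes sphingosine-1-phosphate from sphingosine, alter metabolic gene expression in a mouse model of early metabolic dysfunction-associated steatohepatitis. Total RNA of 12 male mice on the C57BL6-NJ background was counted with colour-barcoded probes, and the labels give no tissue. The 4 groups held 3 mice each. SphK2 KO mice on Western diet with sugar water were labelled as 221, 217 and 252 days old. WT mice on that diet were labelled as 226, 226 and 232 days old. SphK2 KO mice on control diet with normal water were labelled as 259, 253 and 250 days old, and WT mice on control diet as 231, 231 and 232 days old. The knockout is constitutive per the labels, so it is not limited to 1 cell type. Labelled ages of the control-diet KO mice and of Western-diet KO replicate 3 exceed what the growth protocol's starting ages and feeding time allow, and they are in doubt. Most Western-diet KO mice were labelled younger than the control-diet KO mice, so diet and labelled age cannot be fully told apart there.

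When insulin binds its receptor, PI3-kinase forms a membrane lipid that recruits AKT, which is then phosphorylated and passes the signal on. In the liver AKT2 is the isoform best known for restraining glucose output and promoting lipid synthesis. BAD binds and blocks the survival proteins BCL-2 and BCL-XL. AKT is one of the kinases that phosphorylate BAD, after which 14-3-3 proteins hold it in the cytosol and survival is favoured. These controls act on the proteins, whereas the panel counts messenger RNA.

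Akt2 lies at chr7:27591552-27640826 and Bad at chr19:6941861-6951905, both on the plus strand of GRCm38.p6. The 250 bases before the first RefSeq start site of each gene are shown, 5′ to 3′ on the plus strand, chr7:27591302-27591551 and chr19:6941611-6941860. Capitals mark GC boxes, the letters GGGCGG on either strand.
Akt2: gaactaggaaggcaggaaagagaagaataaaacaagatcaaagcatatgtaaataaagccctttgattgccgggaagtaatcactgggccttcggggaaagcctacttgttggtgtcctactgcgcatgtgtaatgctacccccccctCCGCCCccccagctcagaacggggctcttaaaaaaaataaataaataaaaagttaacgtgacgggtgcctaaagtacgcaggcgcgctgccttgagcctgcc
Bad: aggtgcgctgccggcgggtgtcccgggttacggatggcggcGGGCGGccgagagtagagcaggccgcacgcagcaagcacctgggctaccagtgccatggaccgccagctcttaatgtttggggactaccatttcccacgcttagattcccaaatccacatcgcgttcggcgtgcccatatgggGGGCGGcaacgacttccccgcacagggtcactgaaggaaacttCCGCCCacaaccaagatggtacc
The Akt2 window held 1 GC box and the Bad window 3, and 32.74% of all 32851 such windows in the RefSeq table held at least 1. On neither strand did a window hold CCAAT, bound by NF-Y, or the core promoter letters TATAAA. The E-box CACGTG, the cAMP response element TGACGTCA and the forkhead site TGTTTAC were also without a match. No motif overlapped a GC box. Of all windows, 33.85% held CCAAT, 12.37% TATAAA, 6.02% CACGTG, 1.55% TGACGTCA and 3.17% TGTTTAC. RefSeq lists 3 further start sites for Akt2 and 1 for Bad, whose windows held no GC box, and that of Bad held 1 CCAAT. These matches describe the letters of the windows only.

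The deposited values were whole multiples of 1 step in each library (100% of values between 21 and 3000 within 0.1 of a whole number), so counts could be read back. The recovered total above the lowest listed value, 21, was 1138914 in Western-diet WT replicate 3 and 1702816 to 1924846 in the others. Western-diet WT replicate 3 also had the most rows listed at 21 (185, against 77 to 131 elsewhere). No row carried the name of the deleted gene, so genotypes are those of the labels. Akt2 and Bad stand among the first 111 rows, from A2m to Cat, where names and levels fit: 10 hepatocyte names there had row means of 13295 or more, and the lymphocyte names Btk and Blk of 31.6 or less. After Cat they often did not. The row named Gapdh was at 21 in all libraries but Western-diet WT replicate 2 (24.8), and that named Cps1 was at 21 throughout. Rows after Cat are therefore only counted below. No tissue is labelled, and fewer cells of a type and less RNA per cell cannot be told apart in these bulk samples.

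Akt2 was highest in Western-diet WT mice and lowest in Western-diet KO mice. Its normalized signal was 435, 482 and 477 in Western-diet KO mice, against 517, 515 and 571 in control-diet KO mice. All 3 Western-diet KO mice lay below all 3 control-diet KO mice. In WT mice the signal was 579, 528 and 580 on Western diet, against 520, 492 and 515 on control diet. Here the order was the other way, with no overlap, although the gap between the nearest mice (528 and 520) was small. Western-diet KO replicate 3, labelled with an age near that of the control-diet KO mice, had 477, within the range of the other Western-diet KO mice.

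The mean of Akt2 was 465 ± 25.7 on Western diet and 534 ± 31.5 on control diet in KO mice (SD, n = 3 each). In WT mice it was 562 ± 29.9 on Western diet and 509 ± 15.1 on control diet. The log2 fold change for diet (Western over control) was -0.20 ± 0.06 (SE) in KO mice and 0.14 ± 0.06 in WT mice. The diet effect in KO minus that in WT mice was -0.34 ± 0.08 on the log2 scale. Ordered by group mean, Akt2 ran from Western-diet KO over control-diet WT and control-diet KO to Western-diet WT mice. The 2 control-diet groups in the middle overlapped, as did control-diet KO and Western-diet WT mice, while Western-diet KO mice stood below every other mouse.

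For Bad the group that stood apart was Western-diet WT. Its normalized signal was 366, 320 and 403 in Western-diet WT mice, against 295, 287 and 312 in control-diet WT mice. These groups did not overlap, and the highest value, 403, came from Western-diet WT replicate 3, the library with the fewest counts. In KO mice the signal was 309, 298 and 287 on Western diet, against 309, 312 and 312 on control diet. The KO groups overlapped only just: the highest Western-diet mouse had 309.48 and the lowest control-diet mouse 309.27.

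The group means of Bad were 298 ± 11.3 on Western and 311 ± 1.40 on control diet in KO mice, and 363 ± 41.7 on Western and 298 ± 12.7 on control diet in WT mice (SD, n = 3 each). The log2 fold change for diet was -0.06 ± 0.07 (SE) in KO mice and 0.28 ± 0.07 in WT mice. The diet effect in KO minus that in WT mice was -0.34 ± 0.10. Without Western-diet WT replicate 3 it was -0.26 and the diet difference in WT mice 0.20, whereas without Western-diet WT replicate 2 these were -0.43 and 0.37. In the order of means Western-diet WT mice came first and lay above every other mouse. The 3 other groups, from control-diet KO to Western-diet KO and control-diet WT mice, lay between 287 and 312 and overlapped.

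**Figure D1:**
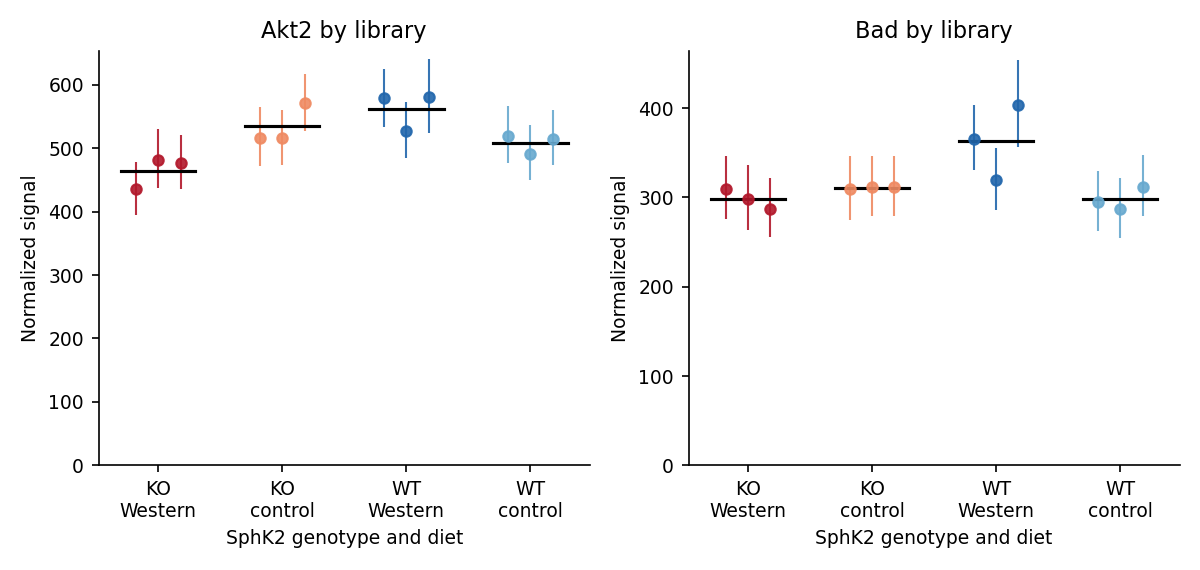
Normalized signal of Akt2 (left) and Bad (right) in each of the 12 libraries, by genotype and diet, on a linear axis from 0. Points are mice, thin bars are 95% intervals for counting error alone and black lines are group means. Akt2 is lowest in Western-diet KO mice (435 to 482) and Bad is highest in Western-diet WT mice (320 to 403).

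The 2 genes thus had a nearly equal difference of diet effects (-0.34 each), made up of different values within the genotypes. Whether the diet effects differ between the 2 genes was not tested. For Akt2 the diet difference was negative in KO and positive in WT mice. For Bad it was positive in WT mice, and in KO mice it was smaller than its error in the fit of all 4 groups. Fitted on the 2 KO groups alone, the diet difference of Bad (-0.06) had an SE of 0.03, against 0.07 from counting error alone. The log2 ratio of Akt2 to Bad within a library, which does not depend on how libraries were scaled, was 0.64 ± 0.13 on Western and 0.78 ± 0.08 on control diet in KO mice (SD, n = 3 each). It was 0.64 ± 0.10 on Western and 0.77 ± 0.05 on control diet in WT mice. The ratio was therefore lower on Western diet by a similar amount in both genotypes, -0.14 ± 0.08 in KO and -0.14 ± 0.08 in WT mice (SE from the pooled SD, no test). Its difference between KO and WT mice was 0.00 ± 0.08 on Western and 0.01 ± 0.08 on control diet. The log2 ratio is Akt2 minus Bad, so these differences follow from those of the 2 genes above and are no separate result.

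Across the table, limma's moderated test of the difference between diet effects called none of the 736 rows at an adjusted p of 0.05, so 0% were called, and 44 rows (5.98%) had an unadjusted p under 0.05. On Western against control diet no row was called in KO mice (0%, with 17 rows or 2.31% at an unadjusted p under 0.05) and none in WT mice (0%, with 49 rows or 6.66%). In KO mice 27 rows (3.67%) were lower on Western than on control diet with no overlap, and in WT mice 32 rows (4.35%) were higher with no overlap. Akt2 was among the 5 rows (0.679%) that were lower with no overlap in KO and higher with no overlap in WT mice, and 3 rows (0.408%) had the mirror image. The other such row from A2m to Cat was Atf4, which encodes a stress-induced transcription factor. Since the pattern chose Akt2, nothing is read from these shares.

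The same 4 groups also give the genotype difference on each diet. On Western diet the log2 fold change (KO over WT) was -0.27 ± 0.06 for Akt2 and -0.28 ± 0.07 for Bad, with no overlap between the groups for either gene. KO mice lay below WT mice with no overlap in 66 rows (8.97%), and limma called 1 row (0.136%), neither Akt2 nor Bad, so nothing particular to the 2 genes is read from it. On control diet it was 0.07 ± 0.06 for Akt2 and 0.06 ± 0.07 for Bad, with overlapping groups for both, and no row was called there (0%). When each library was centred on its median, these 2 control-diet values were -0.10 for Akt2 and -0.10 for Bad, so their direction depended on the scaling. The Western-diet values were then -0.44 for both genes. KO libraries had medians 0.16 (log2) above WT libraries on Western diet and 0.17 on control diet, although the median fold change over rows was 0.03 and 0.02. With this centring the differences between diet effects were -0.34 ± 0.19 (SE) for Akt2 and -0.34 ± 0.20 for Bad, the same in size with wider errors. Centred instead on the median deviation of rows above 21 in all libraries, the control-diet values were 0.05 for Akt2 and 0.04 for Bad. The Western-diet values were then -0.32 for both genes.

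The average over both diets and the average over both genotypes are other contrasts than the difference that chose the genes. Their p-values rest on the same spread within groups, which was small for both genes, and so are not independent of the choice. Averaged over diets, Akt2 had a log2 fold change (KO over WT) of -0.10 ± 0.04 (limma, adjusted p = 0.18 over 736 rows) and Bad one of -0.11 ± 0.05 (adjusted p = 0.233). No row was called there (0%, with 188 rows or 25.5% at an unadjusted p under 0.05). Averaged over genotypes, Akt2 had a log2 fold change (Western over control) of -0.03 ± 0.04 and Bad one of 0.11 ± 0.05 (limma, adjusted p = 1 for both). Again no row was called (0%, with 18 rows or 2.45% at an unadjusted p under 0.05). With libraries weighted by their quality, Akt2 averaged over diets had -0.13 (limma, adjusted p = 0.0258), past the threshold, as did 314 of the 736 rows (42.7%) in that fit. When each library was centred on its median, the averages over diets were -0.27 for Akt2 and -0.27 for Bad (limma, adjusted p = 0.122 and 0.128). Without Western-diet WT replicate 3 that of Bad was -0.07.

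**Figure D2:**
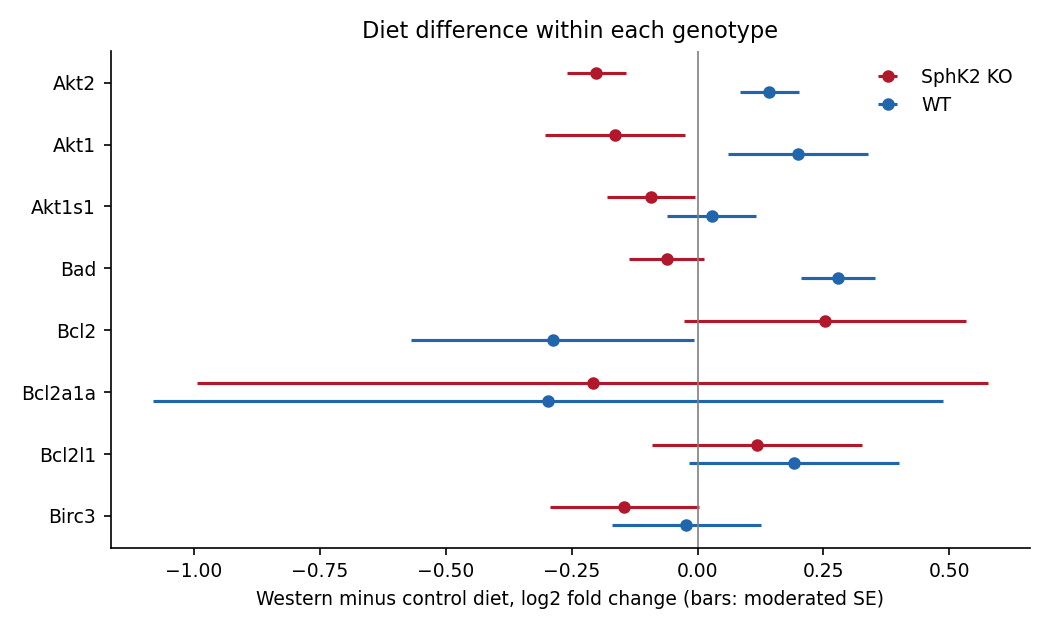
Western minus control diet as a log2 fold change within SphK2 KO mice (red, upper point of each pair) and WT mice (blue, lower point), with moderated standard errors, for Akt2, Bad and their relatives from A2m to Cat. Akt2 has -0.20 in KO and 0.14 in WT mice, Bad -0.06 in KO and 0.28 in WT mice, and Bcl2a1a has the widest bars.

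Pooled over the 4 groups, both genes had little spread, close to what counting alone gives. A library held 386 to 630 recovered counts of Akt2 and 264 to 397 of Bad. The SD within groups, pooled over the 4 groups, was 0.07 for Akt2 on the log2 scale, against 0.06 from counting error. For Bad it was 0.09, against 0.08. Among the 81 rows from A2m to Cat that were above 21 in every library, no row had a smaller pooled SD than Akt2 (0%), and 6.2% had a smaller one than Bad. Over all 538 such rows the median was 0.19, and 3.3% had a smaller SD than Akt2. A small spread makes a small p more likely. Whether the choice of these genes from earlier results favoured a small spread was not tested.

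In control-diet KO mice the coefficient of variation of Bad was 0.451%, against 5.55% from counting error. Replicates there lay closer together than counting alone would place them on average. In Western-diet WT mice the coefficient of variation of Bad was 11.5%, against 5.55% from counting error, so replicates there lay farther apart. Fitted on the 2 WT groups alone, the diet difference of Bad had an SE of 0.10, against 0.07 with all 4 groups. The error of limma for the diet effect in KO minus WT mice, 0.08 for Akt2 and 0.10 for Bad, compares with 0.07 and 0.09 from counting alone. The errors from counting alone were thus nearly as wide as those of the fit. A 95% counting interval ran from 395 to 478 for Akt2 in Western-diet KO replicate 1, and from 356 to 454 for Bad in Western-diet WT replicate 3. Intervals (exact Poisson) cover counting error only.

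**Figure D3:**
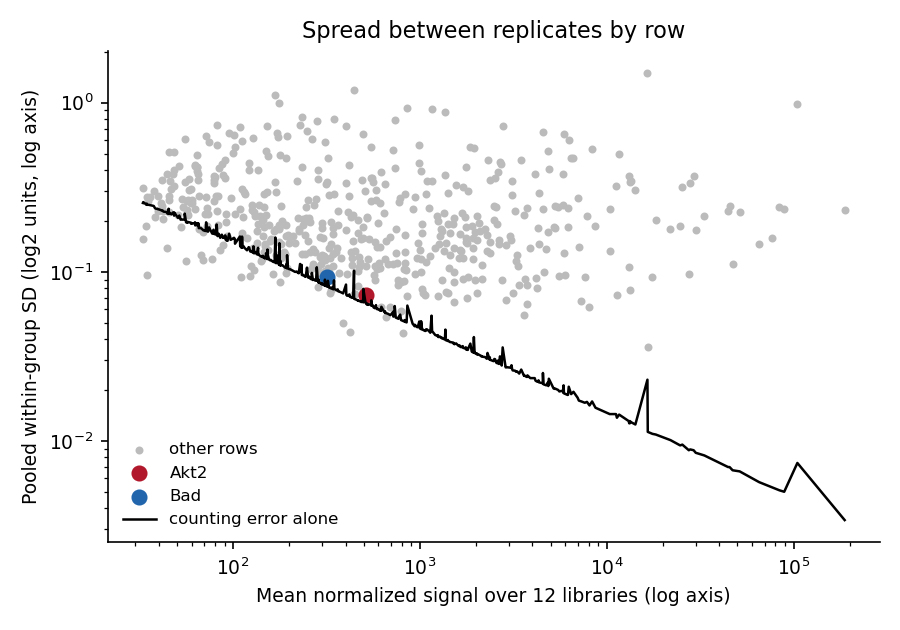
Pooled within-group SD (log2 units) against mean normalized signal for the 538 rows above 21 in every library, both axes logarithmic, with the SD that counting error alone gives as a line. Akt2 (red, 0.07) and Bad (blue, 0.09) lie near the line, below the median row (0.19).

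Likeness to each gene was measured as Pearson's r of log2 values over the 12 libraries, among 80 other rows from A2m to Cat above 21 throughout, as a description. The libraries share 4 groups and the scaling of each library. Akt2 and Bad were both chosen for their difference of diet effects in these libraries, so nothing is read from the r between them. Akt2 was most like Atf4 (r = 0.70, Spearman's rho = 0.80), Acmsd, an enzyme of the kynurenine pathway (r = 0.69), Bad (r = 0.68), Atg2b, which supplies lipid to growing autophagosomes (r = 0.67), and Apom, an apolipoprotein (r = 0.62). Leaving out the 2 libraries farthest from the median of Akt2, Western-diet KO replicate 1 and Western-diet WT replicate 3, r was 0.61 with Atf4, 0.50 with Acmsd, 0.80 with Bad, 0.47 with Atg2b and 0.40 with Apom. Within groups, after subtracting group means, r was 0.26 with Atf4 and 0.38 with Bad, so most of the likeness lay between groups.

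Bad was most like Adh4, an alcohol dehydrogenase that also acts on retinol (r = 0.81, Spearman's rho = 0.67), and Cad, which starts pyrimidine synthesis (r = 0.78, rho = 0.38). Next came Atg2b (r = 0.75), Atf4 (r = 0.71) and Apom (r = 0.70), all 3 also on the list of Akt2. Adh4 had 3509, 2267 and 4179 in Western-diet WT mice, against 2341, 1749 and 3349 in control-diet WT mice. In KO mice it had 1772, 1885 and 1696 on Western diet, against 1763, 2227 and 1665 on control diet. In both WT groups the order of the 3 mice was the same for Adh4 and Bad, while in both KO groups it differed. Taken over all 4 groups, r within groups was 0.82. Without the 2 libraries farthest from the median of Bad, Western-diet WT replicates 1 and 3, r was 0.35 with Adh4, 0.03 with Cad, 0.20 with Atg2b, 0.55 with Atf4 and 0.34 with Apom, and 0.36 with Akt2. Leaving out the 2 most extreme values of Bad tends to lower r by itself, so what the likeness rested on was not tested. Without Western-diet WT replicate 3 alone, r was 0.68 with Adh4, 0.42 with Cad, 0.64 with Atg2b, 0.62 with Atf4 and 0.51 with Apom.

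**Figure D4:**
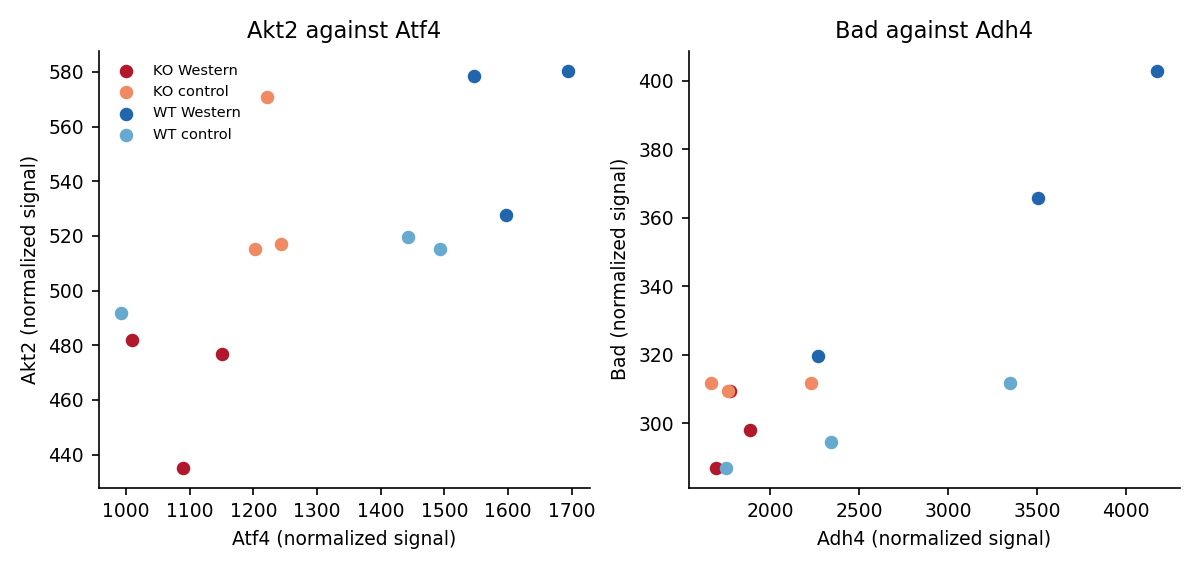
Akt2 against Atf4 (left) and Bad against Adh4 (right), normalized signal on linear axes that do not start at 0, with 1 point per library coloured by genotype and diet. Western-diet KO mice lie at the lower left of the left panel, and the highest Bad values (366 and 403) are those of Western-diet WT replicates 1 and 3.

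The kin of the 2 genes were read from lists of 139 names of insulin, AKT, mTOR, Bcl-2 and caspase signalling, of which 46 were on the panel, 12 of them from A2m to Cat. Besides Akt2 and Bad these were 10 rows, and none passed limma's test in the difference between diet effects or in any other comparison (adjusted p = 0.161 or more). In the difference between diet effects, 0 of the 10 had an unadjusted p under 0.05, against 5.98% of all rows, and their median log2 value was -0.05, against 0.01 over all rows. The 34 rows that carry list names after Cat also held none that passed (2 lower and 0 higher at an unadjusted p under 0.05).

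Akt1, which encodes the most widely expressed AKT kinase, had 396, 349 and 440 in Western-diet KO mice, against 499, 354 and 484 in control-diet KO mice. In WT mice it had 421, 371 and 451 on Western diet, against 351, 373 and 355 on control diet. The groups overlapped in both genotypes. Its log2 fold change for diet was -0.16 ± 0.14 in KO and 0.20 ± 0.14 in WT mice, and the difference between these, -0.36 ± 0.20 (limma, adjusted p = 0.869), was close to that of Akt2 with a wider error. Akt1s1, which encodes the mTORC1 inhibitor PRAS40, an AKT substrate, had a difference of -0.12 ± 0.12 and 632 to 806 over all libraries. Acaca and Acacb, the acetyl-CoA carboxylases of lipid synthesis and of the control of fat oxidation, had 0.42 ± 0.38 and -0.62 ± 0.58. None of these differences passed (limma, adjusted p = 1 for each).

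Of the Bcl-2 family, the survival genes Bcl2, Bcl2l1 (BCL-XL) and Bcl2a1a were measured beside Bad in the rows from A2m to Cat. Bcl2l1 had 292, 275 and 288 in Western-diet KO mice, against 214, 229 and 278 in Western-diet WT mice. These groups overlapped, and the log2 fold change (KO over WT) was 0.25 ± 0.21, opposite in sign to that of Bad on the same diet (-0.28 ± 0.07). On control diet it was 0.33 ± 0.21 for Bcl2l1, also with overlap, and 0.06 ± 0.07 for Bad. Bcl2 had 49.2, 41.8 and 58.2 in Western-diet KO mice, against 26.7, 38.2 and 21 in Western-diet WT mice, where 21 is the lowest value listed. Those groups did not overlap (0.80 ± 0.28, limma, adjusted p = 0.161), as in 107 rows (14.5%) that were higher in KO mice, and the size rests in part on the value at 21. Bcl2a1a, best known from blood cells, had 253, 74.5 and 432 in Western-diet KO mice, against 71.9, 67.8 and 64.7 in Western-diet WT mice (1.55 ± 0.78, adjusted p = 0.306). Both KO groups held 1 low mouse, the second, and on control diet the KO mice had 442, 77 and 370.

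In the KO groups Bcl2a1a was high in the libraries where Btk, a kinase of B and myeloid cells, was also highest. Btk had 34.2, 21 and 63 in Western-diet KO mice and 43, 26.6 and 53.4 in control-diet KO mice, while Blk, a B-cell kinase, was at 21 in all 12 libraries. Summed, these 2 lymphocyte names, the only ones of the list from A2m to Cat, had 42 to 84 in Western-diet KO, 42 to 45.8 in Western-diet WT, 47.6 to 74.4 in control-diet KO and 42 to 48.7 in control-diet WT libraries. Their part in the results was not tested. On Western diet, 2 of the 10 kin rows were higher in KO than in WT mice at an unadjusted p under 0.05 (Bcl2 and Acaca), against 12.4% of all rows, and none was lower, against 8.56%. For the difference between diet effects, Bcl2 had 0.54 ± 0.40, Bcl2l1 -0.07 ± 0.29 and Bcl2a1a 0.09 ± 1.11. Birc3, an inhibitor of apoptosis, had -0.12 ± 0.21, and Braf, a kinase above MAP kinase signalling, -0.02 ± 0.87 with 1 library at 21. No adjusted p of these 5 was below 1 (limma). The errors of these 5, 0.21 to 1.11, were wider than the 0.08 of Akt2.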

How the data were processed

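Per the labels' protocols, Trizol-extracted total RNA was bound to barcoded probes. The authors deposited a normalized signal for 736 rows in 12 libraries; how it was normalized is not given in the sources used here. All 736 row names matched RefSeq mouse symbols or synonyms (GRCm38.p6). No column was left unused (0). Groups came from the labels, and replicate numbers follow sample order and pair nothing. The samples were separate mice as far as ages and titles tell, and p-values rest on the spread among them alone.

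The value of 1 count per library was found as the step of which values between 21 and 3000 are whole multiples. Values at 21 stand for unknown lower counts, so no count model was used. Log2(value + 1) was fitted with limma 3.58.1 in R 4.3.3 (lmFit, eBayes) as 4 group means over all 12 libraries with 8 residual degrees of freedom and 7 contrasts, adjusted by Benjamini-Hochberg over 736 rows. The fit was tested on simulated data. The differences added there were larger than those of Akt2 and Bad, so that test does not cover differences of their size. Fold changes are on the log2(value + 1) scale and errors are moderated standard errors. Counting intervals are exact Poisson at 95%. Other values were computed in Python 3.11.15 with scipy 1.17.1. The members and gene lists were chosen with earlier results of these data known. The text names Akt2 and Bad, all list members from A2m to Cat but 1, which is counted and not reported here, and the 5 rows of highest Pearson's r for each gene. Promoter sequences are from RefSeq (GRCm38.p6). The motifs were chosen from general knowledge after the sequences could be read. Alternatives were median centring, a filter on low rows, log2(value + 10), an intensity trend, library weights estimated gene by gene from rows above 21, a floor of 32, age as a covariate, a fit of only the 2 groups compared, the rows from A2m to Cat alone and leaving out each library. Centring on the median deviation of rows above 21 was added after seeing the data.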

Additional observations from a re-analysis of the deposited data

Results flagged for a closer look

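Akt2 was flagged because all 3 Western-diet KO mice lay below all 3 control-diet KO mice while all 3 Western-diet WT mice lay above all 3 control-diet WT mice. Its diet effect in KO minus that in WT mice was -0.34 (log2). The gene was chosen for this difference, so no p is given for it, and whether the pattern exceeds chance was not tested. Bad was not flagged, because its KO groups overlapped.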

How the results depend on the processing

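For Akt2 and Bad the diet effect in KO minus that in WT mice was negative under each alternative run. Leaving out 1 library gave -0.39 to -0.30 for Akt2 and -0.43 to -0.26 for Bad. Labelled age as a covariate gave -0.32 ± 0.10 (SE) for Akt2 and -0.36 ± 0.13 for Bad. The diet difference of Akt2 in KO mice was -0.18 ± 0.09 in that fit. With library weights the diet effect in KO minus that in WT mice was -0.44 for Akt2, whose diet difference was then -0.29 in KO mice and whose genotype difference was -0.35 on Western and, averaged over diets, -0.13 (limma, adjusted p = 0.0258, past the threshold, as were 42.7% of all rows in that fit, against 0.122 to 0.482 under the other alternatives that kept all libraries). The cause was not tested. With median centring the genotype difference on Western diet was -0.44 for Akt2 and -0.44 for Bad, and on control diet -0.10 and -0.10, which follows from the higher medians of KO libraries. Of 134 values of the 2 genes under alternatives other than leaving out a library, 126 moved by less than the SD between replicates or kept their side of the threshold.

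Counts of called rows moved more. For genotype on Western diet, 1 row was called with all libraries, against 210 with library weights, 8 with the rows from A2m to Cat alone, and 0 with either centring, the filter on low rows, the intensity trend, age or only the groups compared. There were 0 to 21 without 1 library, the most without control-diet WT replicate 2. Library weights gave 164 for genotype on control diet, 314 for genotype averaged over diets and 1 for diet in WT mice, and age gave 2 for diet in KO mice, against 0 each. Without 1 library there were 0 to 1 for the difference between diet effects (1 without Western-diet WT replicate 2) and 0 to 1 for diet in WT mice (1 without control-diet WT replicate 1 or Western-diet WT replicate 2). There were 0 to 3 for genotype on control diet (3 without control-diet KO replicate 2) and 0 to 132 for the genotype average (132 without control-diet KO replicate 2 and 20 without control-diet WT replicate 2). The cause was not tested. No paired analysis was possible because the labels give no replicate numbers.

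With 264 to 630 counts a library, counting error alone gave a log2 SD of 0.06 for Akt2 and 0.08 for Bad, and differences of that size between single libraries cannot be told apart from counting error.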
